A study of Mus musculus with 8 samples.

Results

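The miRNAs described here are the 3 products of one polycistronic cluster, mmu-miR-106b, mmu-miR-93 and mmu-miR-25, whose hairpins lie inside the gene Mcm7. They were chosen as the array rows that carry exactly these names, which gave 3 of the 566 mouse miRNAs on the array and 6 of its 1712 miRNA probes. Levels came from whole brown fat, the tissue that burns lipid to make heat, excised from 8-week-old male mice of the strain C57Bl6N. The cold group was 3 mice (mice 1, 2 and 3) exposed to 8 °C for 24 h, and the room temperature group was 3 mice (mice 4, 5 and 6) held at 21 °C. Each RNA was labelled with 1 dye and hybridised to an Agilent mouse miRNA array, with a pair of technical arrays each for mouse 1 and mouse 4, which gave 8 arrays from 6 animals. The animals carried no transgene or drug treatment that the labels name, and the excised tissue held every cell type of the depot. In such bulk tissue, fewer cells of a type and less RNA per cell cannot be told apart.

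Mcm7 encodes a subunit of the replicative helicase, which unwinds DNA at the start of S phase. The cluster is processed from its primary transcript, so that 1 transcript can yield all members, although each mature miRNA has its own processing and decay. miR-106b and miR-93 belong to the miR-17 seed family, which in human cells is known to repress the cell cycle inhibitor CDKN1A, and miR-25 belongs to the miR-92 seed family, which in human cells is known to repress the pro-apoptotic BCL2L11. In cultured mouse brown preadipocytes, miR-106b and miR-93 have been described as negative regulators of differentiation. The comparison asks whether the products of this transcript moved together when the animals were placed in the cold.

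In RefSeq's annotation of the mouse build GRCm38.p6, Mcm7 lies on the minus strand of chromosome 5 (chr5:138164583-138172111). The hairpins follow one another in the order of transcription as Mir106b (chr5:138165737-138165818), Mir93 (chr5:138165523-138165610) and Mir25 (chr5:138165321-138165404), all inside Mcm7 and on its strand. Together they span 498 bases, with 126 bases between Mir106b and Mir93 and 118 bases between Mir93 and Mir25. The hairpins are shown from 5′ to 3′ to place each measured strand in the shared transcript, with the measured mature miRNA in capitals.
Mir106b: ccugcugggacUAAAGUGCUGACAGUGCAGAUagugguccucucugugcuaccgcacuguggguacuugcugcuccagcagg
Mir93: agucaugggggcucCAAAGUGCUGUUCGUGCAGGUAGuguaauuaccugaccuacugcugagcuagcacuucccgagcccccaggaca
Mir25: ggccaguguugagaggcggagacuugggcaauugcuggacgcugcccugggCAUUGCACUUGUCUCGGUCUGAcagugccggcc

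The mature strands fall into 2 seed groups, and they are shown beside the relatives that the array also carried, since related sequences can share targets and can hybridise to each other's probes. The array's names correspond to the present 5p strands of miR-106b and miR-93 and to the 3p strand of miR-25, and all 14 names looked up were matched in RefSeq. Capitals mark the seed, bases 2 to 8 from the 5′ end. The first group shares the seed AAAGUGC, the site with which the miRNA pairs to its targets.
miR-106b: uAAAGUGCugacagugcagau
miR-93: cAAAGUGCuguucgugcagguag
miR-17: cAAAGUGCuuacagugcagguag
miR-20a: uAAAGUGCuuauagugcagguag
miR-20b: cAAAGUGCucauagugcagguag
miR-106a: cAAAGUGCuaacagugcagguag

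The second group shares the seed AUUGCAC.
miR-25: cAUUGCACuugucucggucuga
miR-92a: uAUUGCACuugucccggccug
miR-92b: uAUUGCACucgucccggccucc
miR-32: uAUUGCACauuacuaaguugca
miR-363: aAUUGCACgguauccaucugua
miR-367: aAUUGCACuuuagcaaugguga

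Aligned from the 5′ end without gaps, miR-106b and miR-93 differed at 5 of 21 positions. miR-106b was nearer to miR-17, miR-20a and miR-106a (3 of 21 positions each) than to its own cluster neighbour. miR-25 differed from miR-92a at 3 of 21 positions. Whether a probe also bound a relative was not tested.

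A property of the arrays bears on every value that follows. All 8 arrays lay on 1 slide, the cold arrays in one slide row and the room temperature arrays in the other, so slide row and group cannot be told apart. Each probe was printed in several spots scattered over the 192 rows of an array, and the signal of a spot depended on where it lay, in opposite ways in the groups. Set against spots of the same probe, spots in rows 1 to 24 were dim on the cold arrays, with a median of -2.91 and a range of -3.31 to -2.62 on the log2 scale over the 4 arrays. On the room temperature arrays the same rows ranged from -0.08 to 0.02. Spots in rows 169 to 192 ranged from -0.36 to 0.19 on the cold arrays, whereas they were dim on the room temperature arrays, with a median of -2.54 and a range of -3.06 to -2.27. Control RNA probes, which do not measure mouse miRNAs, behaved likewise. In rows 1 to 24 their spots had a median of -3.36 on the cold arrays, against 0.09 on the room temperature arrays. In rows 169 to 192 the medians were 0.20 on the cold arrays and -4.21 on the room temperature arrays.

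**Figure D1:**
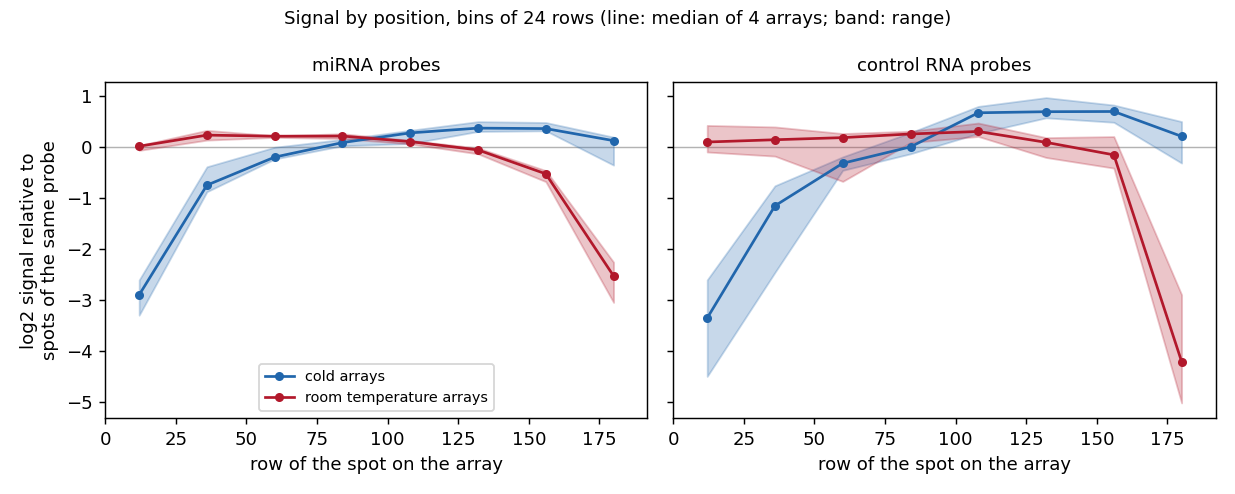
Signal of spots relative to spots of the same probe (log2, y axis) by row of the array in bins of 24 rows (x axis), for miRNA probes (left) and control RNA probes (right). Lines join the median of 4 arrays of each group and bands give the range. The cold arrays fall to -2.91 in the first rows and the room temperature arrays fall to -2.54 in the last rows for miRNA probes.

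Probes with more spots in the last rows tended to have the higher change, cold minus room temperature. Over the 329 probes kept for testing, Spearman's rho between the mean row of a probe's spots and this change was 0.55. These probes share the same 8 arrays, so the value is a description. When each spot was divided by the array's own row trend, estimated in bins of 24 rows, rho was -0.10, and with bins of 12 rows it was -0.07. The trend was estimated from 267 of these same probes, so a weaker rho follows in part from the correction itself. These corrections, and a repeat that used only rows 65 to 128, were chosen after the data were seen. Values from all spots come first, and those with a treatment of the rows stand beside the members' changes and ratios.

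Levels are log2 signals relative to the 75th percentile of the same array, taken over the 267 probes that stood well above background on all 8 arrays, so that 0 is the level of that percentile. Of 189 miRNAs with a kept probe, 29 passed limma's test with an adjusted p under 0.05 (15.3%), of which 16 were higher (8.47% of those tested) and 13 lower in cold. This balance depended on the scaling, with 11 higher and 17 lower for the percentile over all probes, 3 higher and 37 lower when arrays were scaled to control RNAs, and 1 higher and 14 lower without scaling. For 73 of the 189 miRNAs (38.6%) the groups had no overlap between mice. All 3 cluster members were tested, with 2 kept probes for miR-106b and 1 each for miR-93 and miR-25. Only miR-93 passed, as 1 of 3 members, a number too small to set against the 15.3% of all miRNAs. The median change of the 3 members was 0.07, against -0.02 over all 189 miRNAs.

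miR-106b, the first hairpin of the cluster, had log2 levels of -2.30, -1.65 and -1.90 in cold mice 1, 2 and 3, against -1.89, -2.01 and -2.15 in room temperature mice 4, 5 and 6. The groups overlapped, with both the highest and the lowest of the 6 mice in the cold group. The means were -1.95 ± 0.33 in cold and -2.02 ± 0.13 at room temperature (SD, n = 3 each). The difference was 0.07 ± 0.19 (SE), with a 95% interval of -0.36 to 0.50 and an adjusted p of 0.829 (limma, Benjamini-Hochberg over 189 miRNAs). The interval leaves room for a fold between 0.779 and 1.41. The technical arrays of mouse 1 gave -2.70 and -1.90, a gap of 0.80 from the same RNA that was larger than the group difference. With the rows treated, the difference was 0.17 in bins of 24 rows, 0.12 in bins of 12 rows and 0.30 in the middle rows, and none of these passed the test.

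miR-93, which follows it and shares its seed, was higher in cold when all spots were used. Its log2 levels were -2.38, -2.10 and -2.03 in cold mice 1, 2 and 3, against -2.73, -2.90 and -2.76 in room temperature mice 4, 5 and 6. Every cold mouse lay above every room temperature mouse, as was the case for 20.1% of all miRNAs. The means were -2.17 ± 0.19 in cold and -2.80 ± 0.09 at room temperature (SD, n = 3 each). The difference was 0.62 ± 0.14 (SE), a 1.54-fold higher level with a 95% interval of 1.23 to 1.94-fold and an adjusted p of 0.0222 (limma). The technical arrays of mouse 4 lay 0.54 apart, and those of mouse 1 gave -2.44 and -2.33.

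This call was lost under each of the 3 treatments of position. With the row trend removed in bins of 24 rows, miR-93 levels were -2.35, -2.18 and -2.08 in cold mice 1, 2 and 3, against -1.89, -2.25 and -2.18 in room temperature mice 4, 5 and 6. The groups then overlapped, and the difference was -0.09, with a 95% interval of -0.43 to 0.24 and an adjusted p of 0.647 (limma). With bins of 12 rows the difference was 0.26, with a 95% interval of -0.05 to 0.57 and an adjusted p of 0.285 (limma). Only 2 spots of its kept probe lay in rows 65 to 128. They gave a difference of 0.61, with every cold mouse above every room temperature mouse, a 95% interval of -0.01 to 1.24 and an adjusted p of 0.198 (limma). No miRNA of 188 passed the test on these rows, although 46 had an unadjusted p under 0.05. The estimated size of the change in miR-93, and its sign, thus depended on how the rows were treated.

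miR-25, the last hairpin, had log2 levels of -1.56, -1.40 and -1.46 in cold mice 1, 2 and 3, against -1.39, -1.40 and -1.48 in room temperature mice 4, 5 and 6. The groups overlapped, and all 6 mice lay close together. The means were -1.47 ± 0.08 in cold and -1.42 ± 0.05 at room temperature (SD, n = 3 each). The difference was -0.05 ± 0.12 (SE), with a 95% interval of -0.32 to 0.23 and an adjusted p of 0.819 (limma). This interval is the narrowest of the 3 members, and its upper end is a 1.17-fold higher level. With the row trend removed the difference was -0.10 in bins of 24 rows and 0.00 in bins of 12 rows, and in the middle rows it was 0.16. None of these passed the test.

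**Figure D2:**
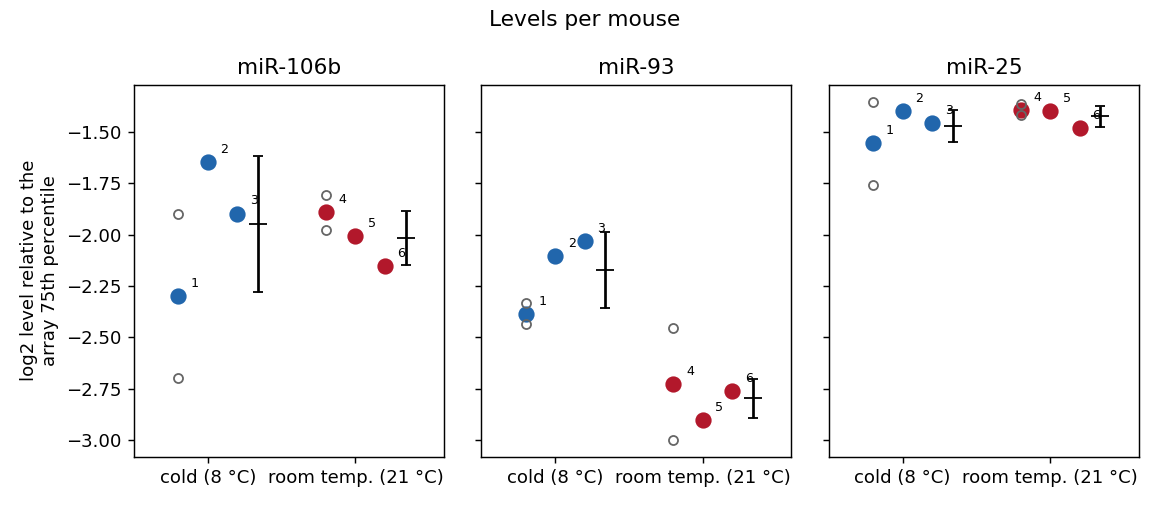
Log2 level relative to the array's 75th percentile (y axis) of miR-106b, miR-93 and miR-25 in cold (left) and room temperature (right) mice, from all spots. Filled points are mice, numbered, open circles are the technical arrays of mice 1 and 4, and bars give the mean and SD of 3 mice. Only for miR-93 do the cold mice (-2.38 to -2.03) lie apart from the room temperature mice (-2.90 to -2.73).

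Whether the members changed by unequal amounts was asked with the log2 ratio of 2 members within each mouse, which does not depend on how an array is scaled but still depends on where its spots lie. For miR-93 over miR-106b the log2 ratio was -0.09, -0.46 and -0.14 in cold mice 1, 2 and 3, against -0.84, -0.89 and -0.61 in room temperature mice 4, 5 and 6. For miR-93 over miR-25 it was -0.83, -0.70 and -0.58 in cold mice, against -1.33, -1.51 and -1.28 in room temperature mice. Both ratios were higher in every cold mouse than in any room temperature mouse, an order that 20.1% of single miRNAs also showed. The differences were 0.55 and 0.67, each with an exact permutation p of 0.1 (two-sided), the smallest that 3 against 3 mice allow, and 0.15 after adjustment over the 3 pairs. For miR-25 over miR-106b the log2 ratio was 0.74, 0.25 and 0.44 in cold mice, against 0.50, 0.61 and 0.67 in room temperature mice. These groups overlapped, with a difference of -0.12 and an exact permutation p of 0.6. When limma was fitted to the ratios of all miRNAs to miR-25, the ratio of miR-93 to miR-25 had an adjusted p of 0.0161 and a 95% interval of 0.37 to 0.97. Fitted to miR-106b instead, the ratio of miR-93 had an adjusted p of 0.262 (limma). The share of all ratios to the same member that separated the groups, or that passed these fits, is not given here.

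The ratios also changed with the treatment of the rows. With the row trend removed in bins of 24 rows, the difference was -0.27 for miR-93 over miR-106b and 0.00 for miR-93 over miR-25, with exact permutation p-values of 0.2 and 1. In bins of 12 rows they were 0.13 and 0.26, with exact permutation p-values of 0.2 and 0.1. The cold mice thus still lay above all room temperature mice for miR-93 over miR-25 in bins of 12 rows, and they overlapped for miR-93 over miR-106b. In the middle rows both ratios overlapped, with differences of 0.32 and 0.45 and an exact permutation p of 0.2 each. For miR-25 over miR-106b the difference was -0.27 in bins of 24 rows, where the groups did not overlap (exact permutation p of 0.1). It was -0.12 in bins of 12 rows and -0.14 in the middle rows, where they overlapped, with exact permutation p-values of 0.2 and 0.5. None of the 3 ratios was separated under all 3 treatments of the rows, and these values do not show that the members moved alike.

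The single probes show the dependence directly. miR-93 was measured by probe A_54_P1328, whose 10 spots lay in rows 7, 14, 51, 90, 126, 158, 167, 172, 179 and 179. Unscaled, its mouse values were 121, 194 and 224 units in cold mice 1, 2 and 3, against 152, 115 and 208 units in room temperature mice 4, 5 and 6. The unscaled groups overlapped, at 180 ± 53.4 units in the cold mice and 158 ± 46.5 units in the room temperature mice (SD, n = 3 each). Within the probe, the spot in row 14 averaged 23.5 units in cold and 264 units at room temperature. The spot in row 90 averaged 269 units in cold and 344 units at room temperature, and one in row 179 averaged 262 units in cold and 60.3 units at room temperature. The same RNA thus read lower in cold at the first rows and higher in cold at the last rows.

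Averaged by position and scaled, the 3 spots of this probe in the first 64 rows had a ratio of cold to room temperature of 0.307, the 2 spots in the middle rows 1.51 and the 5 spots in the last 64 rows 4.14. With 5 of its 10 spots in the last rows, its spots had a mean row of 114.3, against a median of 95.7 over all kept probes. The second miR-93 probe, A_54_P1327, was too dim to be kept, at 18.1 ± 8.36 units in the cold mice and 10.8 ± 1.03 units in the room temperature mice (SD, n = 3 each). Most of its spots exceeded background clearly on 1 of 4 cold arrays and 0 of 4 room temperature arrays, so no change is given for it.

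The kept probes of miR-106b had changes of opposite sign when all spots were used. A_54_P1263 averaged 419 ± 116 units in cold and 436 ± 95.9 units at room temperature, and A_54_P1264 averaged 113 ± 40.3 units in the cold mice and 162 ± 27.4 units in the room temperature mice (SD, n = 3 each). Their log2 changes after scaling were 0.36 and -0.22. The mean row was 100.7 for the first and 89.2 for the second, which had 5 of 10 spots in the first 64 rows. With the row trend removed in bins of 24 rows, the changes were 0.17 and 0.18, and in bins of 12 rows they were 0.24 and 0.00. Both probes measure the same miRNA in the same mice, and the difference between them was not tested.

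miR-25 was measured by A_54_P1433, whose mouse values were 218, 316 and 334 units in cold mice 1, 2 and 3, against 375, 327 and 504 units in room temperature mice 4, 5 and 6. Its spots had a mean row of 83.6, with 4 in the first, 4 in the middle and 2 in the last rows. Its scaled ratio of cold to room temperature was 0.497 in the first, 1.12 in the middle and 1.75 in the last rows. The second probe, A_54_P1432, was too dim to be kept. It averaged 39.8 ± 18.2 units in the cold mice and 21.0 ± 7.17 units in the room temperature mice (SD, n = 3 each), and 5 of its 10 spots lay in the last rows. Most of its spots exceeded background clearly on 1 of 4 cold arrays and 3 of 4 room temperature arrays, so no change is given for it. In the 4 kept probes of the cluster, the ratio of cold to room temperature was lowest in the first and highest in the last rows.

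**Figure D3:**
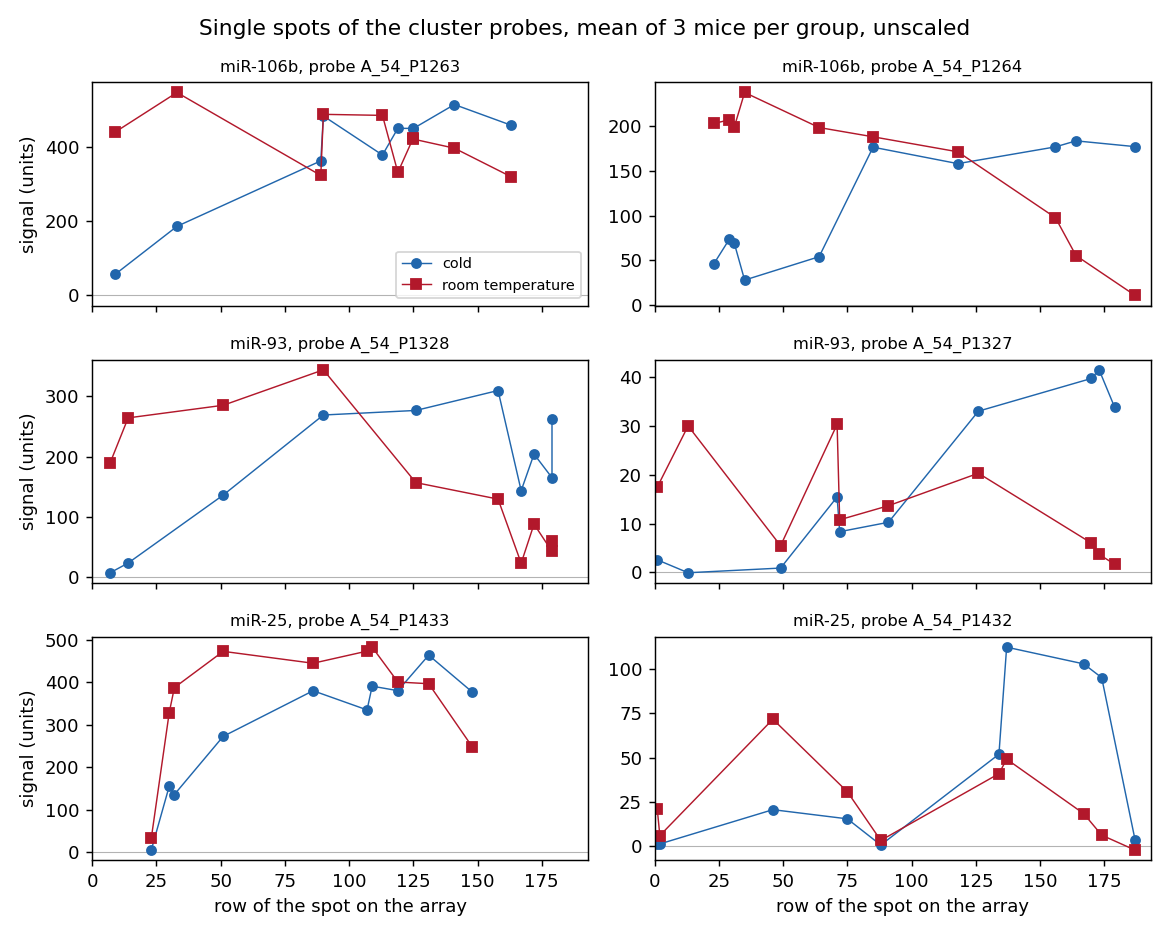
Unscaled signal (units, y axis) of each spot of the 6 cluster probes by its row on the array (x axis), averaged over 3 cold mice (circles) and 3 room temperature mice (squares). Left and right panels are the probes of one miRNA, and only the left probes and A_54_P1264 were kept. Cold spots are the dimmer ones in the first rows and room temperature spots are mostly the dimmer ones in the last rows.

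The spots of one probe also varied widely within an array. Over the 8 arrays, the coefficient of variation among the spots of A_54_P1328 ranged from 59.2% to 112% with a median of 85.4%, against a median of 38.0% for A_54_P1263 and 47.9% for A_54_P1433. Over the 267 probes well above background on all 8 arrays, the median of an array lay between 41.7% and 69.3%. That range leaves outlier spots out, whereas the values of the cluster probes include them, so they are not directly comparable.

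The opposite strands of the hairpins were not detected. miR-106b* and miR-93*, the 3p strands, had 4 probes each with 5 spots per probe, and no spot of miR-106b* was well above background on any array. The same held for miR-93*. miR-25* was not analysed here.

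Of the miR-17 seed relatives, miR-20a and miR-20b were tested, and neither passed. miR-20a, from the miR-17-92 cluster, had a log2 change of 0.03 and an adjusted p of 0.881 (limma), and miR-20b, from the miR-106a-363 cluster on the X chromosome, had 0.13 and 0.510 (limma). Their kept probes also had changes of opposite sign, 0.42 and -0.37 for miR-20a and 0.42 and -0.16 for miR-20b. In each pair the probe with the positive change had the higher mean row, 107.7 against 73.2 for miR-20a and 113.5 against 81.4 for miR-20b. With the row trend removed in bins of 24 rows, all 4 probes had positive changes between 0.02 and 0.27, and neither miRNA passed. miR-17 and miR-106a, which differ from these by a few bases outside the seed, had no kept probe.

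Of the miR-25 seed relatives, miR-92a was the 1 of 5 that was tested. Its log2 change was 0.53, with every cold mouse above every room temperature mouse and an adjusted p of 0.0545 (limma). Its probes had changes of 0.56 and 0.50, and both had mean rows above the median of 95.7, at 109.1 and 128.4. With the row trend removed its change was -0.10 in bins of 24 rows and -0.14 in bins of 12 rows, with adjusted p-values of 0.619 and 0.478 (limma). In the middle rows its change was 0.17, which did not pass, so its sign too depended on how the rows were treated. miR-32, miR-92b, miR-363 and miR-367 had no kept probe. Of the other seeds in the related clusters, miR-18a, miR-19a and miR-19b had changes of -0.05, -0.25 and -0.01, none of which passed, and miR-18b had no kept probe.

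**Figure D4:**
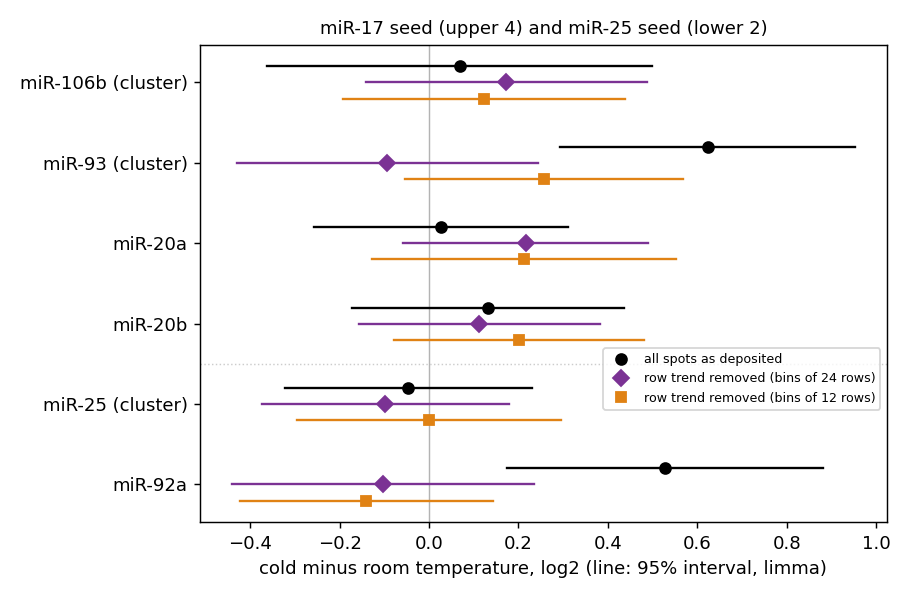
Cold minus room temperature (log2, x axis, positive is higher in cold) of the cluster members and their tested seed relatives (y axis), with 95% intervals from limma. Circles use all spots, diamonds and squares have the row trend removed in bins of 24 and 12 rows. miR-93 lies at 0.62 from all spots and at -0.09 and 0.26 after the corrections, and miR-92a lies at 0.53 from all spots and at -0.10 and -0.14 after them.

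The miRNAs whose levels ran most like each member over the 6 mice were found by the root mean square difference of mean-centred log2 levels. For miR-93 these were miR-92a (0.119), miR-193* (0.126) and miR-30d (0.138), whereas miR-106b stood 52nd and miR-25 stood 73rd of the other 188 miRNAs. For miR-25 they were miR-20a (0.0462), miR-331-3p (0.0496) and miR-10b (0.0509), with miR-106b in place 50 and miR-93 in place 143. For miR-106b they were miR-652 (0.0934), miR-212 (0.124) and miR-331-3p (0.142), with miR-25 in place 6 and miR-93 in place 104. These measures use all spots and so contain the row trend.

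Marker miRNAs of brown fat and of other cell types were examined, although a change between groups cannot check the tissue label. From all spots, the summed linear level of the brown fat markers ranged from 8.68 to 11.9 in cold mice. In room temperature mice it ranged from 6.996 to 8.44. All 5 brown fat markers were tested, and 2 of them, miR-193b and miR-378, passed as higher in cold (against 8.47% of all miRNAs), with log2 changes of 0.64 and 0.97 and adjusted p-values of 0.0129 and 0.0219 (limma). After removal of the row trend, both passed in bins of 24 rows and neither did in bins of 12 rows. The changes in bins of 12 rows were 0.29 and 0.56, with adjusted p-values of 0.357 and 0.0532 (limma). The others did not pass, with changes of 0.42 for miR-203, 0.13 for miR-455 and -0.07 for miR-365. Each of these averages kept probes with changes of opposite sign from all spots. The changes were 0.97 and -0.14 for miR-203, 0.34 and -0.07 for miR-455, and 0.82 and -0.97 for miR-365. In each pair the probe with the positive change had the higher mean row, for miR-365 123.1 against 51.5. Markers of other cell types are given from all spots, except where stated. The summed linear level of 3 erythroid markers (miR-451, miR-144 and miR-486) ranged from 17.4 to 27.9 in cold mice and from 12.3 to 15.1 in room temperature mice, and none of the 3 passed the test. Of 6 muscle markers, 4 were tested, and 3 passed as lower in cold, against 13 of all 189 miRNAs. With the row trend removed, 4 passed as lower in bins of 24 rows and 2 in bins of 12 rows, against 14 and 8 of all 189 miRNAs. In the middle rows none passed, as for all miRNAs. From all spots, the sums of the 4 tested muscle markers ranged from 1.49 to 6.44 in cold mice and from 7.53 to 11.1 in room temperature mice. The muscle sums lay below all brown fat sums in the cold group, whereas the ranges overlapped in the room temperature group. How much muscle the samples held was not tested. The sums of 7 leukocyte markers ranged from 0.684 to 1.11 in cold and from 1.17 to 1.23 at room temperature, and those of 2 endothelial markers overlapped between the groups, with the lowest at 8.98 in cold and 11.2 at room temperature. The liver marker miR-122 stood at the floor of 0.01 in every cold mouse and between 0.011 and 0.30 in room temperature mice. Its kept probe passed the filter on 0 cold arrays and 4 room temperature arrays. It was thus kept only through the group where it was higher, and no support is drawn from this contrast. No leukocyte, endothelial or liver marker passed the test. The part of these shares in the values of the cluster was not tested.

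The sign of the change in miR-106b depended on the scaling, while miR-25 was negative under each of the scalings tried. The 75th percentile itself was 793 ± 150 units in the cold mice and 1085 ± 286 units in the room temperature mice (SD, n = 3 each; exact permutation p = 0.2, two-sided). Without scaling, the changes were -0.37 for miR-106b, 0.18 for miR-93 and -0.49 for miR-25, and the median of all miRNAs was -0.46. Scaled to the control RNAs, they were -0.29, 0.27 and -0.40, with a median of -0.38. On the log2 scale these scalings differ only by an amount shared by all miRNAs of an array. Changes relative to the median of all miRNAs are therefore the same under them by construction, so their equality is not a check. These relative changes were 0.09 for miR-106b, 0.65 for miR-93 and -0.02 for miR-25. None of the members passed the test under either of these scalings (limma), with adjusted p-values for miR-93 of 0.731 and 0.362.

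**Figure D5:**
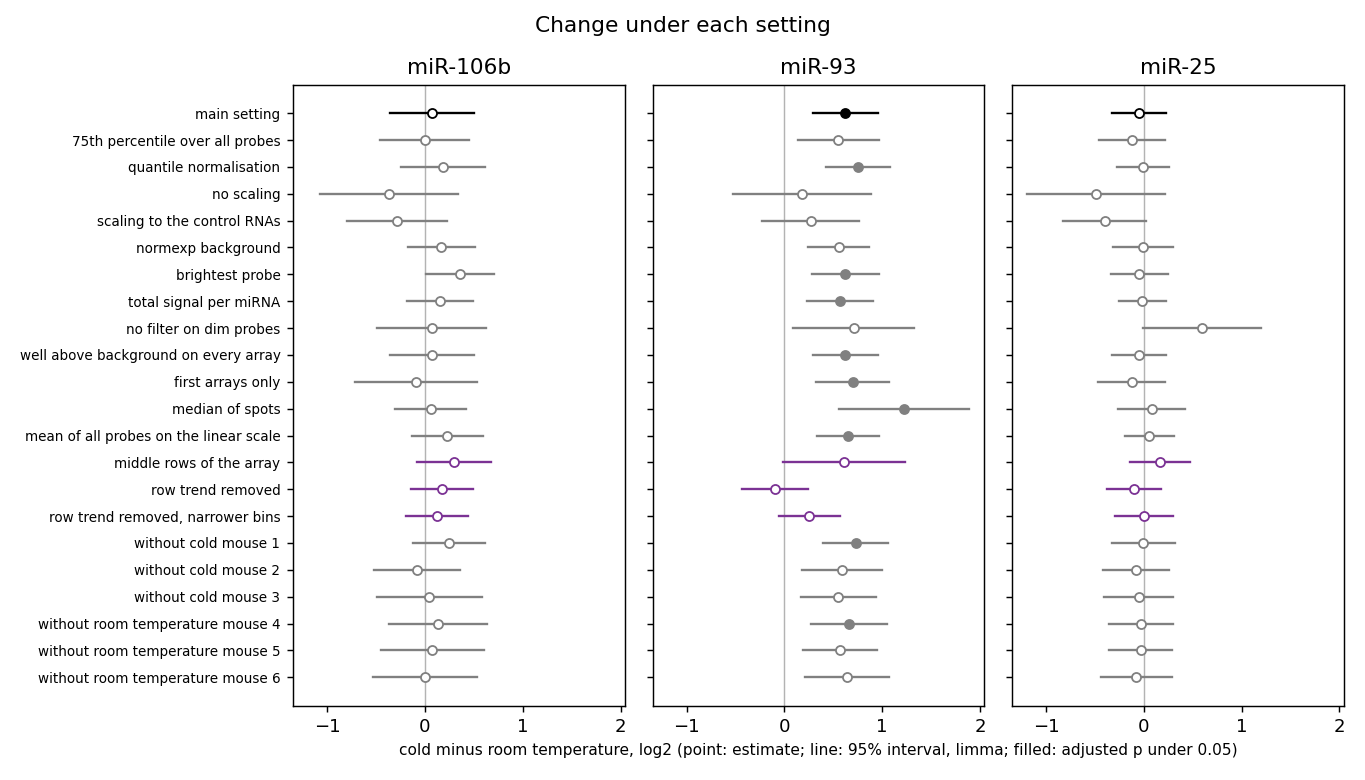
Cold minus room temperature (log2, x axis) of the cluster members under each setting (y axis), with 95% intervals from limma. Filled points passed an adjusted p of 0.05, and the settings that treat array rows are in purple. miR-93 ranges from -0.09 to 1.22 over the settings other than left-out mice, and no setting gives a call for miR-106b or miR-25.

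The call for miR-93 also depended on which mice were included. With each of the 6 mice left out in turn, its difference stayed between 0.55 and 0.73, but it passed in only 2 of the 6 fits, those without mouse 1 or mouse 4. Without mouse 2, 3, 5 or 6 it did not pass, with adjusted p-values of up to 0.0933 (limma). Those fits hold 2 mice in one group and have less power by their construction.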

How the data were processed

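The authors deposited the scanner output of each array, and the value used is its background-subtracted spot intensity in linear units, written by Agilent Feature Extraction 10.7.3.1 per the file headers, 9.5.3.1 per the submitters' processing notes. Control spots and outlier spots were left out, spots of a probe were averaged, and arrays were scaled to a common 75th percentile, computed over 267 probes that exceeded background clearly on all of them. A floor of 0.01 preceded the log2. Probes were kept (329 of 1712) if, in at least 1 group, more than a share of 0.5 of their spots exceeded background clearly on all of its arrays. A miRNA is the mean of its kept probes, and technical arrays were averaged. limma 3.58.1 in R 4.3.3 was fitted over 189 miRNAs with Benjamini-Hochberg adjustment. The fit was tested on simulated data with independent noise, changes larger than that of miR-93 and no row trend. Such data cannot show how the fit behaves where the row trend is present. The number of mice limits the precision.

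The members, lists and tests were chosen with earlier results of these data known. The miRNAs named are the members, their listed relatives, and the 3 others most like each member. For the normexp alternative the median spot signal stood in for the mean signal. The control scaling used the geometric mean of 4 control RNAs, picked after control values were seen. In the alternative scalings the floor was put at the level it has in the main scaling, after a first run in which it was not.

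The row trend of an array was estimated by a median polish of log2 spot signals over probes and bins of 24 or 12 of the 192 rows, and spots were divided by it.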

Additional observations from a re-analysis of the deposited data

How the results depend on the processing

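No paired analysis was possible because the mouse numbers of the groups are not shared. Of 15 alternatives other than left-out mice, miR-93 was called under 7, with its highest change for the median of spots (1.22, limma adjusted p 0.0357, with ratios of 1.16 to miR-106b and 1.14 to miR-25), and miR-106b and miR-25 under none. None of these 7 treated the rows. The brightest probe and the filter for probes well above background on every array left the miR-93 values of the main setting unchanged, so they are not separate checks. miR-93 (log2 change, limma adjusted p) lost the call with the percentile over all probes (0.55, 0.0719), no scaling (0.18, 0.731), control RNAs (0.27, 0.362), normexp (0.55, 0.0511), no filter on dim probes (0.71, 0.407), middle rows (0.61, 0.198) and bins of 12 rows (0.26, 0.285), and it reversed to -0.0933 in bins of 24 rows. miR-106b reversed with the percentile over all probes (-0.00426), no scaling (-0.37), control RNAs (-0.29) and first arrays only (-0.093). miR-25 reversed with no filter on dim probes (0.59), the median of spots (0.0828), the linear mean of all probes (0.0567) and the middle rows (0.16). The setting without the filter and the linear mean of all probes both add its dim probe. The ratio of miR-25 to miR-106b reversed without the filter (0.53) and with the median of spots (0.0243), and that of miR-93 to miR-106b in bins of 24 rows (-0.27). The ratio of miR-93 to miR-25 (0.67) passed with limma on ratios, which was fitted only in the main setting, with the row trend left in. Without the filter on dim probes this ratio fell to 0.11, with overlapping groups and an exact permutation p of 0.4. Except where stated, the cause was not tested.

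The number of called miRNAs, 29, became 15 without scaling, 6 with normexp, 5 of 566 without the filter, 16 with probes well above background on every array, and 0 in the middle rows (46 at an unadjusted p under 0.05). It was 33 in bins of 24 rows, 20 of them among the 29, and 23 in bins of 12 rows, 13 of them among the 29. Leaving out each mouse gave 8 to 33 calls. It moved miR-106b between -0.0813 and 0.24, miR-93 between 0.55 and 0.73 and miR-25 between -0.08 and -0.00407. The ratio of miR-93 to miR-106b moved between 0.48 and 0.67, that of miR-25 to miR-106b between -0.25 and -0.000475, and that of miR-93 to miR-25 between 0.60 and 0.73. The median of spots, the linear mean, the middle rows and both trend corrections were chosen after seeing the data.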
